A study of Mus musculus with 36 samples.

Results

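The antibody genes of mouse diaphragm were followed through every probe set whose annotation field begins with Igh, Igk or Igl, other than Ighmbp2, together with the probe set for the joining chain, Jchain. This rule, which uses names and no measured value, gave 80 of the 12422 probe sets that are not array controls. Of these, 39 read the immunoglobulin heavy chain, 36 the kappa light chain, 2 the lambda light chain, 2 the surrogate light chain gene Igll1 and 1 Jchain. A probe set is a group of short oligonucleotides that together report 1 transcript or a family of similar transcripts. Among the 80 members, 33 carry the maker's suffix for probe sets that match a gene family (_f_at), so a symbol printed beside such a probe set does not mean that only that gene was read. The annotation field of 13 members holds several symbols, and these are named below by probe set and chain alone. One of them, the kappa probe set 101633_at, also lists Asb2, a gene outside the family.

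An antibody is built of heavy and light chains, and each B cell assembles the variable region of both chains from many gene segments, so that different B cell clones carry different variable segments. Plasma cells, the end stage of the B lineage, secrete antibody and hold very large amounts of immunoglobulin mRNA. The joining chain links IgM and IgA units into polymers and is made by antibody-secreting cells, whereas Igll1 belongs to the surrogate light chain that B cell precursors use before they have a light chain of their own. In mdx mice, which lack full-length dystrophin, muscle fibres die and the muscle is infiltrated by inflammatory cells.

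Total RNA of diaphragm, the main breathing muscle, was read on 1-colour Affymetrix arrays. There were mdx mice, whose dystrophin gene Dmd is mutated, and control mice at 7, 14, 23, 28, 56 and 112 days, with 3 arrays for each age and genotype, hence 12 groups and 36 arrays. The labels give no strain, sex, pooling or date, and nothing in them tells whether each array of a group stands for its own animal. The p-values therefore rest on variation among arrays that could be purely technical. Values are signals on a linear scale that the authors had brought to a common level. In whole tissue, fewer cells of a type and less RNA per cell cannot be told apart.

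The Dmd probe set had a lowest, median and highest signal of 139, 276 and 712 on the 18 mdx arrays, against 330.0, 630 and 1026 on the 18 control arrays, and was lower in mdx as a mean over the 6 ages (log2 difference -1.01, adjusted p = 2.22e-07). The liver gene Alb, which encodes serum albumin, exceeded a signal of 10000 on 9 arrays: mdx replicate 1 and control replicate 3 at 7 days, mdx replicate 3 and control replicates 2 and 3 at 14 days, control replicate 1 at 56 days, and mdx replicate 2 and control replicates 2 and 3 at 112 days. On mdx replicate 1 at 7 days the B cell gene Ms4a1 was also above the other arrays of the group, at 1843 by 104173_at against 466 and 439.9. Changes without these arrays are given below or with the other settings, for most counts and for most named members that lost a call. Without them control replicate 1 alone is left at 14 and at 112 days, and other groups also lose arrays. Calls lost without these arrays therefore cannot be told apart from calls lost to fewer arrays.

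Both protein-coding genes of the set that are not assembled from segments are shown by the 250 bases that precede their start, because these windows are where B lineage factors are sought. Sequences are from RefSeq on GRCm38.p6, written along the minus strand on which both genes lie. Capitals mark a match to CCCNNGGG, the core of the motif of EBF1, a B lineage transcription factor.
Jchain (chr5:88527898-88528147): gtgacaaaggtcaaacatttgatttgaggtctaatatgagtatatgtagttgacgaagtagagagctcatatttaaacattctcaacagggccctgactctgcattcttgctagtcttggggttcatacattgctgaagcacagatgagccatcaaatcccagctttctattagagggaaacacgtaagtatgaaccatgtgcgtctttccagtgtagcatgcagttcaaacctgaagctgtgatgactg
Igll1 (chr16:16863986-16864235): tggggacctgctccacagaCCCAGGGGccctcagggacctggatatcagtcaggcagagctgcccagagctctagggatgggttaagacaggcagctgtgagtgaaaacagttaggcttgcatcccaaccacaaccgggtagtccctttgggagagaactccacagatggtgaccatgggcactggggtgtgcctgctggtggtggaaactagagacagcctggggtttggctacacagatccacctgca
Both strands were searched. The CCCNNGGG letters occurred once in the Igll1 window and not in the Jchain window, and 11.817% of 32851 windows of this length hold them. The octamer ATGCAAAT, a motif known from immunoglobulin promoters, was in neither window and is in 1.601% of all windows, while the E-box CANNTG occurred 3 times in each and is in 66.217% of all windows. A match is a description of letters and says nothing of binding.

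The heavy chain locus lies on chromosome 12, kappa on chromosome 6, and lambda and Igll1 on chromosome 16. On GRCm38.p6 the constant region genes Igha (chr12:113256204-113260236), Ighg3 (chr12:113357442-113361232), Ighd (chr12:113407535-113416324) and Ighm (chr12:113418826-113422730) follow each other along the heavy chain locus, the kappa constant region Igkc is at chr6:70726435-70726754, and the variable segments Igkv6-23 and Igkv6-14 are at chr6:70260409-70260933 and chr6:70434952-70435476. Of the 80 members, 77 were matched to RefSeq by every gene ID in their field.

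Signals differed widely between members. The mean over the 36 arrays ran from 32.1 to 7161 for heavy chain probe sets and from 66.6 to 11450 for kappa ones (11449.6 for 93086_at), and was 304 for Iglc1, a lambda constant region, 282 and 389 for Igll1, and 1264 for Jchain. A test was run where at least 3 arrays lay above a signal of 374.5, percentile 40 of all values, which 57 members met: 22 heavy, 31 kappa, Iglc1, both Igll1 probe sets and Jchain. The other 23 were not tested, and their highest single value was 1733. Of the 57, only 6 were above that signal on all 36 arrays, and 22 were above it on 12 arrays or fewer. Levels of different probe sets are not compared as amounts, since each has its own oligonucleotides.

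Antibody genes differed between mdx and control diaphragm chiefly at 23 days, when kappa light chain signals and Jchain were higher in mdx and no heavy chain probe set passed the test. Of the 57 members tested, 12 were higher in mdx at 23 days and 0 were lower, where 2.68% of all 9291 probe sets were higher and 0.807% lower. They were 11 of the 31 kappa probe sets and Jchain, and 0 of the 22 heavy chain probe sets. The median log2 difference was 1.08 for kappa and 0.16 for heavy chain probe sets, 0.60 over the 57, and -0.01 over all probe sets tested. Of all 80 members, 24 had mdx arrays all above control arrays at 23 days and 0 all below, where 11.1% and 8.86% of the 12422 probe sets did so.

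**Figure D1:**
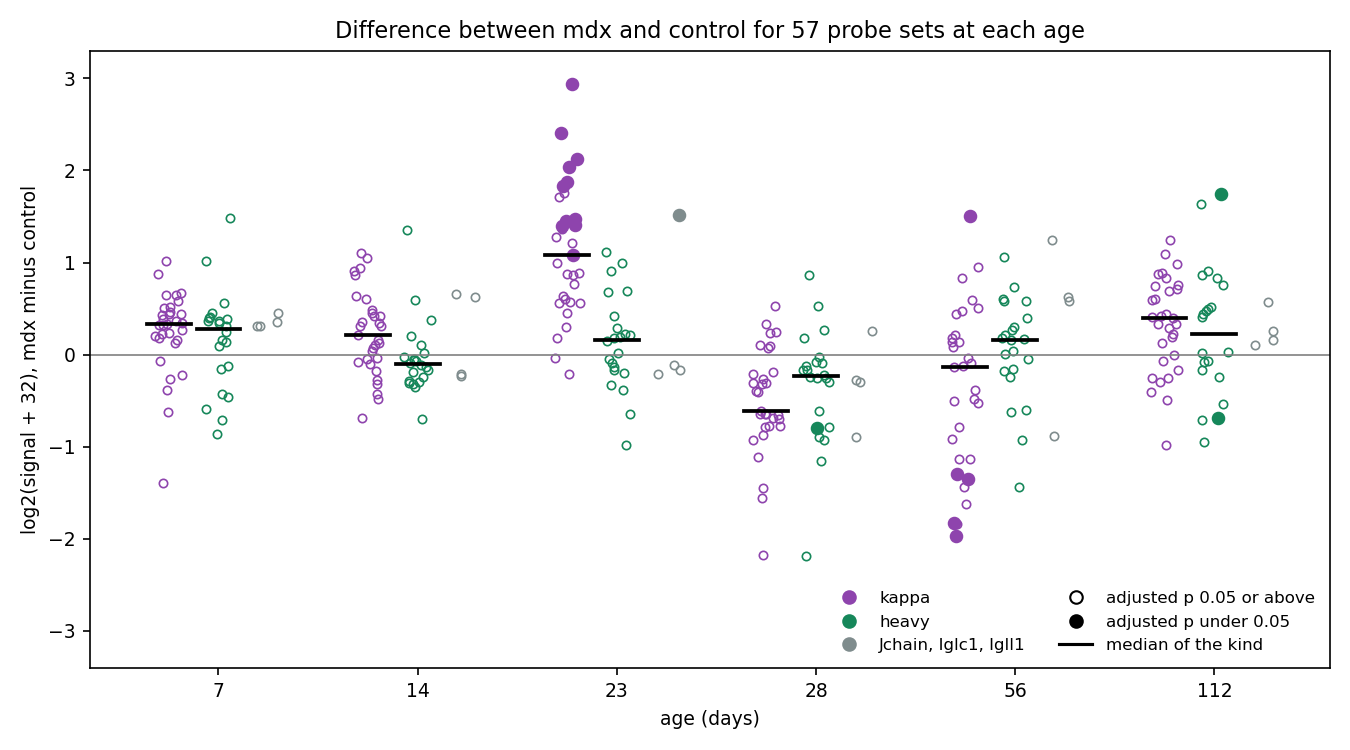
Log2 difference between mdx and control diaphragm (y axis, log2 of signal plus 32) of the 57 tested probe sets at each age (x axis, days), by chain. Filled points passed an adjusted p of 0.05, open points did not, and bars mark the median of kappa and of heavy chain probe sets; the kappa median is 1.08 at 23 days and -0.61 at 28 days.

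At the other ages few members passed the test. At 7 days 0 members passed in either direction by limma, where 0.0538% of all probe sets were higher and 0.409% lower. An unadjusted limma p under 0.05 was found for 5 members (8.77%) at that age, against 10.7% of all probe sets. At 14 days 0 members passed as well, where 0.161% of all were higher and 0.0323% lower. There 3 members (5.26%) had an unadjusted p under 0.05, against 6.55% of all probe sets. At 28 days 0 members were higher and 1 was lower, against 2.42% and 0.538% of all probe sets, and the median log2 difference was -0.31 for the members and -0.04 for all. At 56 days 1 was higher and 4 were lower, against 9.27% and 7.38% of all. At 112 days 1 was higher and 1 lower, against 7.65% and 4.52% of all. As a mean over the 6 ages 3 were higher and 1 lower, against 10.4% and 7.41% of all. The shares of members that passed at 56 days, at 112 days and for the mean of the 6 ages were below those of all probe sets in each direction.

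Counted over all 80 members by arrays that did not overlap between the genotypes, 8 were higher in mdx and 2 lower at 7 days, against 8.71% and 6.04% of the 12422 probe sets. There were 9 higher and 2 lower at 14 days, against 6.03% and 6.36%, and 2 higher and 8 lower at 28 days, against 9.72% and 9.43%. There were 6 higher and 14 lower at 56 days, against 22.7% and 10%, and 13 higher and 2 lower at 112 days, against 12.2% and 7.78%. The members with mdx above control were thus most numerous at 23 days and those with mdx below control at 56 days.

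Jchain passed the test at 23 days, when it was higher in mdx, and did not pass at the other 5 ages. At 23 days its signal was 2271, 921 and 982 on the mdx arrays, against 364, 649.9 and 319.9 on the control arrays, so that every mdx array was above every control array. Its log2 difference was 1.52 ± 0.42 (SE, adjusted p = 0.0379). At 28 days the order of the means turned, with 939, 919 and 333 in mdx and 645, 2023 and 1538 in control diaphragm, and the arrays overlapped (log2 difference -0.90, adjusted p = 0.363). At 56 days all mdx arrays, at 1917, 1742 and 2279.7, lay below all control arrays, at 3228, 4569 and 3334, but the difference did not pass (log2 difference -0.89, adjusted p = 0.146); it passed when the 6 arrays of that age were fitted alone (adjusted p = 0.0179).

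The remaining ages showed no separation of the genotypes for Jchain. At 7 days it had 226, 287 and 308 in mdx and 174.5, 273 and 178 in control diaphragm. At 14 days it had 773, 483 and 236 in mdx and 398, 376 and 989.9 in control diaphragm. At 112 days it had 2781, 1647 and 1859 in mdx and 2165, 1603 and 1768 in control diaphragm. The mdx and control arrays overlapped at all 3 of these ages. Without the arrays with high Alb the log2 difference was 0.39 at 7 days, 0.58 at 14 days and 0.07 at 112 days, against 0.36, -0.23 and 0.16 with them. Control replicate 1 was then the only control array at 14 and at 112 days. The F test of whether the difference depends on age passed for Jchain (adjusted p = 0.0399), but the call was lost in 16 of 44 alternatives, with an adjusted p of up to 0.14. With 6 arrays at an age, the 23-day difference rested partly on single arrays: it was 1.11 (adjusted p = 0.384) without mdx replicate 1, 1.41 (0.154) without control replicate 1 and 1.33 (0.176) without control replicate 3. The call at 23 days was also lost with quantile normalization (1.27, adjusted p = 0.151), with replicate number as a block (adjusted p = 0.112) and with the 6 arrays of that age alone (adjusted p = 0.0786).

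**Figure D2:**
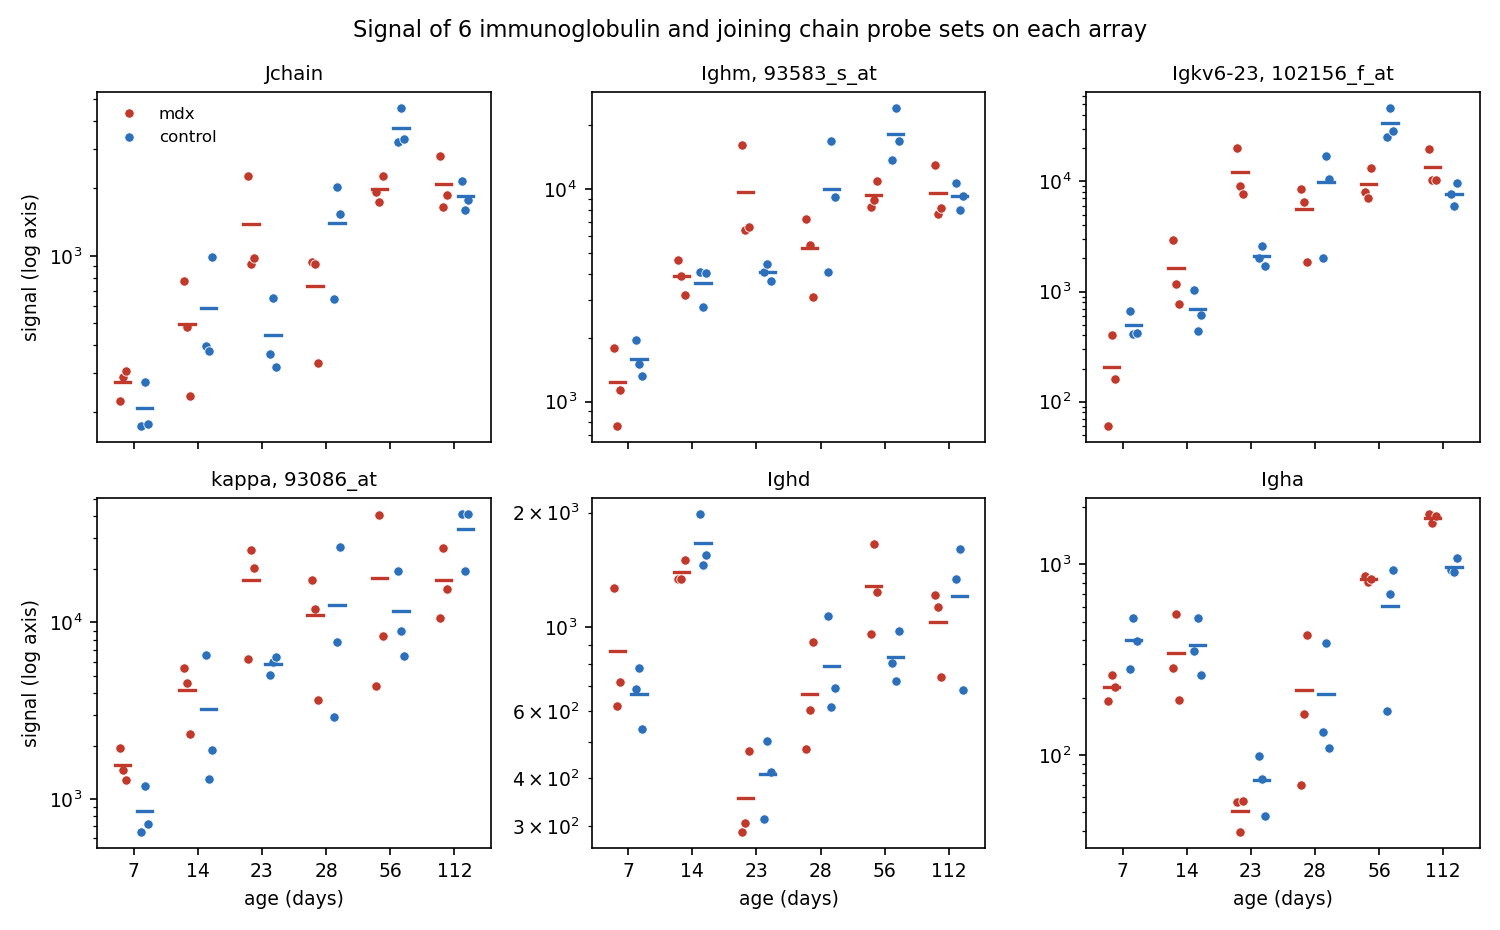
Signal on each array (y axis, log scale) by age (x axis, days) for Jchain, Ighm, Igkv6-23, the kappa probe set 93086_at, Ighd and Igha, with mdx in red and control in blue; bars mark the mean of 3 arrays. Jchain, Ighm 93583_s_at and Igkv6-23 lie higher in mdx at 23 days and lower in mdx at 56 days, while Ighd and Igha are lowest at 23 days in both genotypes.

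Among kappa light chain probe sets, the widest difference at 23 days was that of Igkv6-14 (101331_f_at), a variable segment. It read 1353, 299 and 307 in mdx, against 115, 22.8 and 10.9 in control diaphragm, a log2 difference of 2.94 ± 0.57 (SE, adjusted p = 0.00145). Every mdx array was above every control array, and mdx replicate 1 was well above the other mdx arrays. By another probe set annotated to Igkv6-14, 97569_at, the arrays overlapped, with 302, 93.3 and 169.5 in mdx against 201, 163 and 168 in control diaphragm (log2 difference -0.04, adjusted p = 0.985).

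The brightest kappa probe set with a single symbol was Igkv6-23 (102156_f_at). At 23 days it read 20136, 9038 and 7685 in mdx, against 2011, 2611 and 1713 in control diaphragm (log2 difference 2.41 ± 0.60, SE, adjusted p = 0.0176). At 56 days the order was the opposite, with 8071, 7054 and 13220.4 in mdx and 25367, 46471 and 28843 in control diaphragm (log2 difference -1.83, adjusted p = 0.0346). The arrays of the genotypes did not overlap at either age, and the dependence of the difference on age passed the F test (adjusted p = 0.0053). Without the arrays with high Alb the call at 56 days was lost (log2 difference -2.005), as was that of the F test. At 112 days the 3 mdx arrays, at 19780.0, 10300.2 and 10271.5, were again all above the 3 control arrays, at 7614, 5957 and 9656, without passing (log2 difference 0.75, adjusted p = 0.474).

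The other kappa probe sets that were higher in mdx at 23 days had smaller differences. The smallest adjusted p belonged to 97567_f_at, a kappa family probe set, with 4794, 1375 and 1174 in mdx against 453, 536 and 572 in control diaphragm (log2 difference 1.87 ± 0.33, SE, adjusted p = 0.000602). The kappa probe set 101616_at read 399, 233 and 325 in mdx, against 28.0, 67.3 and 51.1 in control diaphragm (log2 difference 2.12, adjusted p = 0.00721). Between them lay Igkv8-19 (93227_f_at, 2.04), and the remaining log2 differences were 1.83 for the kappa probe set 101640_f_at, 1.48 for Igkv8-30 (96963_s_at), 1.46 for Igkv4-70 (101718_f_at), 1.41 for Igkv4-91 (94725_f_at), 1.40 for the kappa probe set 102585_f_at and 1.08 for Igkv14-111 (100682_f_at). When the arrays with high Alb, all of other ages, were left out, Igkv8-19 (93227_f_at) and Igkv4-70 (101718_f_at) no longer passed at 23 days.

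All 12 members that passed at 23 days were highest on mdx replicate 1, and all 12 had every mdx array above every control array. Without mdx replicate 1 only 2 members passed, without control replicate 1 there were 3, and without control replicate 3 there were 4; the other 3 arrays left 8 to 12. Igkv6-14 (101331_f_at) and 97567_f_at passed whichever of the 6 arrays was left out. The same 12 members had 4 positive and 8 negative differences at 28 days, with a median of -0.46, and 2 positive and 10 negative ones at 56 days, with a median of -0.50. At 112 days 10 of them were positive and 2 negative, with a median of 0.37, and 0 passed. The arrays of these ages are separate samples, and the ages share no array.

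The kappa probe set with the highest mean signal, 93086_at, varied widely between arrays of a group. It read 6248, 25757 and 20271 in mdx at 23 days, against 5029, 5943 and 6388 in control diaphragm, and 4383, 40584 and 8371 in mdx at 56 days, against 19496, 8944 and 6449 in control diaphragm. On mdx replicate 1 at 23 days it was the lowest of the 3 mdx arrays, although the same array was the highest of the 3 for Igkv6-23 (102156_f_at). It passed the test in none of the 6 comparisons of mdx with control diaphragm, with log2 differences of -0.98 to 1.36. Over the 57 members, the correlation of log2 values between arrays, after each group mean was subtracted, had a median of 0.15 over 1596 pairs of members and ran from -0.70 to 0.85. These pairs share the 36 arrays, and family probe sets share target sequence.

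At 56 days the members lower in mdx were all kappa segments. Igkv14-111 by 100683_r_at read 157, 314 and 154 in mdx, against 855, 798 and 956 in control diaphragm (log2 difference -1.97 ± 0.46, SE, adjusted p = 0.00362), and kept its call whichever of the 6 arrays of that age was left out. Igkv14-111 by 96974_at (-1.35) and Igkv1-133 (99405_at, -1.30) were also lower in mdx, and Igkv1-133 read 7149 on control replicate 2 against 2107 and 1358 on the other control arrays. Igkv2-112 (96969_at) was the member higher in mdx, with 655, 395 and 265 in mdx against 88.9, 114 and 185 in control diaphragm (log2 difference 1.5, adjusted p = 0.0322). It was above the signal needed for a test on only 3 arrays, mdx replicates 1 and 2 of this age among them. It thus entered the tests through the group in which it is high, and its value is a description. The count of 5 fell to 1 without mdx replicate 2, to 2 without mdx replicate 1 or control replicate 2, and to 3 without control replicate 1. Without the arrays with high Alb, Igkv1-133 (99405_at, -1.49) and Igkv2-112 (96969_at, 1.32) no longer passed at this age. The other probe set for Igkv14-111, 100682_f_at, did not differ beyond its spread at this age, with 1181 ± 300 in mdx and 1162 ± 477 in control diaphragm (SD, n = 3 each). It shares a design record with 100683_r_at, so these 2 probe sets do not give 1 reading.

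Heavy chain constant regions, which set the antibody class, were read by single-symbol probe sets for Ighm (IgM), Ighd (IgD), Ighg3 (IgG3) and Igha (IgA). Ighm had 16 probe sets, of which 8 were tested, and their readings went different ways. The brightest, 93583_s_at, read 16038, 6401 and 6621 in mdx at 23 days, against 4059.8, 4461 and 3684 in control diaphragm. Every mdx array was above every control array, as for Jchain, but the difference did not pass (log2 difference 1.11 ± 0.37, SE, adjusted p = 0.109). At 56 days it read 8284, 8859.6 and 10960.4 in mdx, against 13779.9, 24101 and 16788 in control diaphragm, again without overlap and without passing (log2 difference -0.93, adjusted p = 0.083).

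A second Ighm probe set, 93584_at, was lower in mdx diaphragm. As a mean over the 6 ages its log2 difference was -0.50 ± 0.09 (SE, adjusted p = 0.000165). At 28 days it read 969.6, 1275 and 1064 in mdx, against 1892, 2324 and 1633 in control diaphragm (log2 difference -0.80, adjusted p = 0.0459). At 112 days it read 1087, 1213 and 644 in mdx, against 1665, 1372 and 1614 in control diaphragm (log2 difference -0.69, adjusted p = 0.0432). The arrays did not overlap at 28, 56 or 112 days. The call at 28 days was lost without control replicate 1, 2 or 3, mdx replicate 1 or 3, or the arrays with high Alb. The call at 112 days was lost without mdx replicate 3, any 1 of the control arrays or the arrays with high Alb (-0.96). The count of 1 at 28 days was 3 without control replicate 1, 2 without mdx replicate 2 and 0 without any other 1 of the 6 arrays. The differences of 93584_at had the same sign at all 6 ages, from -0.80 to -0.05.

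Another Ighm probe set, 99420_at, was higher in mdx at 112 days. It read 1135, 468 and 697 in mdx, against 195, 207 and 177 in control diaphragm (log2 difference 1.74), and no mdx array overlapped with a control array. These 3 mdx arrays are the only ones on which it was above the signal needed for a test, so it entered the tests through the group in which it is high and had to differ there. It is the member counted as higher at 112 days, and its value is a description. At the other ages its group means lay between 59.1 and 174 in mdx and between 65.4 and 126 in control diaphragm. It is also 1 of the 3 members counted as higher as a mean over the 6 ages (0.46), with the same limit, beside Igkv6-14 101331_f_at (0.72, adjusted p = 0.0268) and Ighg3 102722_g_at (0.70, adjusted p = 0.0355). Without mdx replicate 1 at 7 days, mdx replicate 1 at 23 days or control replicate 1 at 28 days, the count of 4 for the mean fell to 2. Without the arrays with high Alb neither Igkv6-14 101331_f_at (0.86, adjusted p = 0.0872) nor Ighg3 102722_g_at (0.50, adjusted p = 0.212) passed for the mean.

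Ighd, read by 101157_at, did not differ between genotypes beyond the spread of the arrays at any age, with log2 differences of -0.25 to 0.58 and adjusted p of 0.18 or more. Its group means were lowest at 23 days in both genotypes. It averaged 1393 ± 92.7 in mdx and 1663 ± 280.1 in control diaphragm at 14 days, and 356 ± 102 in mdx and 411 ± 94.9 in control diaphragm at 23 days (SD, n = 3 each). Igha by 100583_at was likewise low at 23 days, with 51.2 ± 10.1 in mdx and 73.9 ± 25.4 in control diaphragm. At 112 days Igha read 1834, 1648 and 1792 in mdx, against 928, 915 and 1073 in control diaphragm, without overlap but without passing (log2 difference 0.84 ± 0.48, SE, adjusted p = 0.284). Its probe set shares a design record with probe sets annotated to Ighv14-2, so what it reads is uncertain.

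Ighg3 had 7 probe sets, of which 5 were tested. By 102722_g_at it read 431, 327 and 559.8 in mdx at 112 days, against 102, 242 and 56.4 in control diaphragm, and 79.4, 71.2 and 24.3 in mdx at 7 days, against 64.8, 180.0 and 157 in control diaphragm. The difference between mdx and control was greater at 112 than at 7 days by a log2 value of 2.50 ± 0.81 (SE), with an adjusted p of 0.0479. By 102721_at, a probe set with the same design record, the corresponding value was -0.34 (adjusted p = 0.795), so the 2 probe sets do not give 1 direction. The same test passed in the other direction for Igh-VS107 102152_f_at (-1.96, adjusted p = 0.0253) and for Ighv5-12 98765_f_at (-1.10, adjusted p = 0.0153), both heavy chain variable segments, where 6.25% of all probe sets passed higher and 3.59% lower. These 3 counts fell to 1 without mdx replicate 1 at 7 days, control replicate 3 at 7 days, mdx replicate 3 at 112 days or control replicate 1 at 112 days, and to 0 without the arrays with high Alb.

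The lambda and surrogate light chains showed no difference that passed. Iglc1 (93639_r_at) read 845, 242 and 569 in mdx at 14 days, against 55.8, 836 and 451 in control diaphragm, a wide spread within each genotype. Igll1 averaged 202 to 538 by group for 99428_at in mdx diaphragm and 231 to 577 in control diaphragm. Its second probe set, 99429_at, averaged 527 ± 193.5 in mdx and 215 ± 126 in control diaphragm at 56 days (SD, n = 3 each; log2 difference 1.25, adjusted p = 0.0576). Neither Igll1 probe set passed in any comparison.

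The dependence of the mdx difference on age, tested by an F test over the 6 ages, passed for 8 of the 57 members, where 8.93% of all probe sets passed. They were Jchain and the kappa probe sets 101331_f_at (Igkv6-14), 102156_f_at (Igkv6-23), 96969_at (Igkv2-112), 99405_at (Igkv1-133), 101616_at, 102585_f_at and 97567_f_at, and no heavy chain probe set. Of the alternatives run, the call was lost in 33 of 44 for Igkv1-133 (99405_at), 22 of 43 for Igkv2-112 (96969_at), 16 of 44 for Jchain, 7 of 44 for 102585_f_at, 4 of 44 for 97567_f_at, 3 of 43 for 101616_at and 1 of 44 each for 101331_f_at and 102156_f_at. Without mdx replicate 1 or control replicate 1 at 23 days 2 members passed, and without control replicate 1 at 28 days 13 passed. The count was 4 without control replicate 3 at 23 days or at 28 days. It was 5 without control replicate 3 at 7 days or without replicate 1 or 2 of either genotype at 56 days. Without the arrays with high Alb, only 101616_at and 102585_f_at of the members named here kept the call. Igkv2-112 (96969_at) entered the tests through the mdx arrays at 56 days, so its value is a description.

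Summed signals were higher in mdx at 23 days and lower in mdx at 56 days. The 80 members together gave 68180.4 ± 15057 in mdx and 27750.1 ± 3395 in control diaphragm at 23 days (SD, n = 3 each). They gave 47465 ± 13188 in mdx and 67086 ± 26714 in control diaphragm at 28 days, and 89689 ± 15989 in mdx and 127474 ± 32516 in control diaphragm at 56 days. At 112 days the sums were 96056 ± 6119.9 in mdx and 100016 ± 16621 in control diaphragm. At 23 days the lowest mdx sum was 57077 and the highest control sum 31621. At 56 days the highest mdx sum was 106134 and the lowest control sum 107268. The genotypes did not overlap at these 2 ages, in opposite directions, and the sums are given without a test.

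A few probe sets made up much of these sums. The 3 brightest members, 93086_at, 102156_f_at and 93583_s_at, held 10.8% to 12.9% of the sum on the mdx arrays and 13.5% to 17.1% on the control arrays at 7 days, and 49.7% to 66.3% on the mdx arrays and 41.2% to 44.7% on the control arrays at 23 days. The other 77 members summed to 42897, 20950.4 and 22499 in mdx at 23 days, against 14184, 18607 and 14562 in control diaphragm, so the genotypes stayed apart at 23 days without the brightest members, with mdx replicate 1 the highest. At 56 days the same 77 members summed to 53461, 49637 and 56184 in mdx, against 51529.6, 85466 and 55188 in control diaphragm, and the genotypes overlapped.

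**Figure D3:**
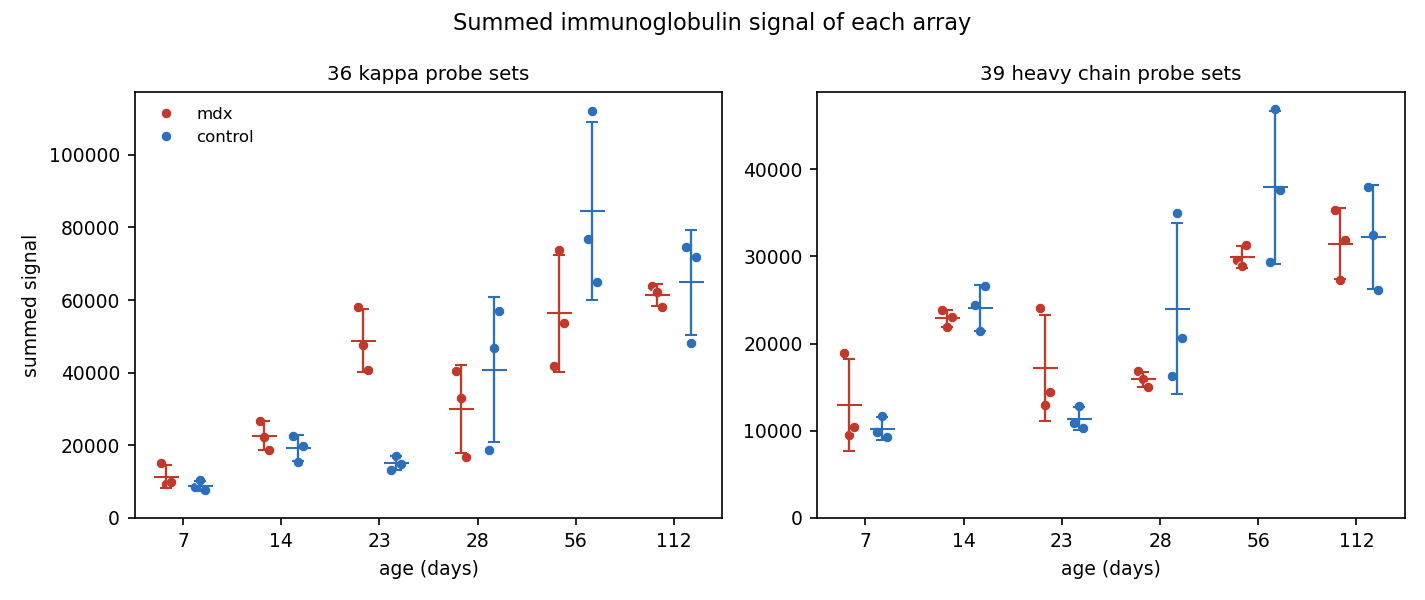
Summed signal (y axis, linear from 0) of the 36 kappa and the 39 heavy chain probe sets on each array by age (x axis, days), with mdx in red and control in blue; bars show the mean and SD of 3 arrays. Kappa sums average 48823 in mdx and 15038 in control diaphragm at 23 days, and heavy chain sums 17183 in mdx and 11392 in control diaphragm. The heavy chain sums at 23 days are also apart, but narrowly, with 12941 the lowest in mdx and 12867 the highest in control diaphragm.

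With age, antibody genes rose in both genotypes. In mdx diaphragm 30 of the 57 members were higher at 112 than at 7 days and 0 lower, where 8.18% of all probe sets were higher and 9.18% lower. In control diaphragm 39 were higher and 0 lower, where 21.4% of all were higher and 20.3% lower. Of the 80 members, 42 had all arrays at 112 days above all arrays at 7 days in mdx and 0 all below, against 12.9% and 9.81% of the 12422 probe sets, and 50 and 0 did so in control diaphragm, against 25.7% and 20.1%. The median log2 difference was 1.67 for kappa and 1.45 for heavy chain members in mdx, and 1.61 for kappa and 1.46 for heavy chain members in control diaphragm, against 0.04 in mdx and 0.10 in control diaphragm over all probe sets. There were 26 members on both lists, which is 86.7% of the mdx list and 66.7% of the control list, and 14 on neither, both Igll1 probe sets among them.

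In mdx the largest rise was that of Igkv6-23 (102156_f_at), which read 19780.0, 10300.2 and 10271.5 in mdx at 112 days, against 60.5, 403 and 162 in mdx at 7 days, a log2 difference of 6.01 ± 0.60 (SE, adjusted p = 1.01e-08). In control diaphragm it was 7614, 5957 and 9656 at 112 days, against 666, 411 and 423 at 7 days (3.87 ± 0.60, adjusted p = 8.2e-06), which came after the kappa probe set 93086_at (5.23). The arrays of the 2 ages did not overlap in either genotype. The difference in rise between the genotypes did not pass its own test for either probe set (adjusted p = 0.111 for 102156_f_at and 0.272 for 93086_at). After Igkv6-23, the log2 differences in mdx were, in falling order, 3.70 for the kappa probe set 101640_f_at, 3.66 for Igkv6-14 101331_f_at, 3.38 for 93086_at, 2.97 for Ighm 93583_s_at, 2.79 for Igha 100583_at, 2.77 for Jchain, 2.67 for Igkv8-19 93227_f_at, 2.66 for the kappa probe set 101633_at and 2.63 for Ighm 99420_at. In control diaphragm the first 2 were followed by 101640_f_at (3.21), Jchain (2.98), 101331_f_at (2.74), Ighm 101745_f_at (2.67), Igkv4-68 102076_at (2.57), Ighm 93583_s_at (2.53), 93227_f_at (2.48) and Igkv4-59 101751_f_at (2.43), and Igha 100583_at gave 1.25. All of these members rose in the genotype for which they are listed. Ighm 99420_at reached the signal needed for a test only on the mdx arrays at 112 days. Its rise in mdx, which is counted above, therefore had to appear and is a description. Igkv9-120 99396_at, also counted in mdx (1.69), was above that signal on only 3 arrays. Its highest value, 460.5, was on mdx replicate 2 at 112 days, an age at which it averaged 406 in mdx. It entered the tests largely through the group in which it is high, so its rise is a description too. Without the arrays with high Alb, control replicate 1 alone was left at 112 days, so only log2 differences are given. Igkv6-23 102156_f_at was then higher by 5.62 in mdx and 3.78 in control diaphragm. Jchain was higher by 2.81 in mdx and 3.13 in control diaphragm, and Igkv8-19 93227_f_at by 2.19 in control diaphragm.

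**Figure D4:**
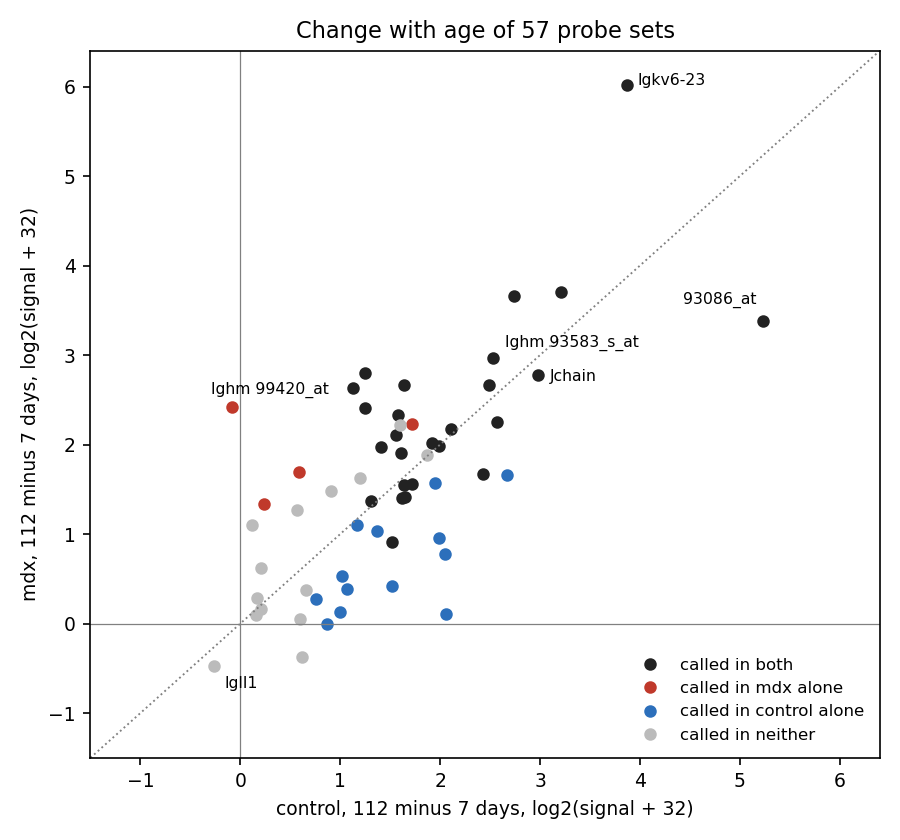
Log2 difference between 112 and 7 days in mdx (y axis) and in control diaphragm (x axis) for the 57 tested probe sets; colours show in which genotype the adjusted p was under 0.05 (called), and the dotted line marks equal change. Most points lie above 0 on both axes, with 26 called in both genotypes and 14 in neither.

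The course between 7 and 112 days was not even. From one age to the next, kappa members had a median log2 step of 0.75 in mdx and 0.84 in control diaphragm between 7 and 14 days. Between 14 and 23 days the step was 0.33 in mdx and -0.93 in control diaphragm for kappa, and -0.98 in mdx and -1.02 in control diaphragm for heavy chain members. Between 23 and 28 days kappa stepped by -0.38 in mdx and 1.25 in control diaphragm, and between 28 and 56 days by 1.22 in mdx and 0.90 in control diaphragm. The higher kappa signal of mdx at 23 days thus stood beside low values in control diaphragm at that age. Of the 31 kappa members, 4 had their lowest mean at 23 days in mdx and 14 in control diaphragm. At 7 days 20 of them had their lowest mean in mdx and 14 in control diaphragm. Over all probe sets tested the median step between 14 and 23 days was -0.17 in mdx and -0.22 in control diaphragm. Of the 22 heavy chain members 14 had their lowest mean at 23 days in each genotype. The median signal of all probe sets was also low at 23 days, at 474 to 517 on the mdx arrays and 451 to 505 on the control arrays, against 674 to 678 on the mdx arrays and 663 to 689 on the control arrays at 14 days, and its part in these steps was not tested.

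Other genes of the B lineage were measured beside the members. Of 20 B lineage genes measured, 2 were higher in mdx at 23 days and 0 lower. They were Cd72 (1.61, adjusted p = 0.00555), a surface protein found on B cells, and Cd24a (0.63, adjusted p = 0.0303). Which cells of the tissue carried these 2 signals was not tested. The 20 genes summed to 12658 to 15024 on the mdx arrays and 9398 to 10826 on the control arrays at 23 days, without overlap. The B cell receptor subunit Cd79a read 893, 987 and 499.6 in mdx at 23 days, against 467, 369 and 442 in control diaphragm. The B cell surface marker Ms4a1 (104173_at) read 833, 625 and 534 in mdx at that age, against 380.3, 379 and 466 in control diaphragm. The other receptor subunit, Cd79b, read 727, 536 and 383 in mdx, against 142, 223 and 201 in control diaphragm. For all 3 genes every mdx array was above every control array, but none passed. By these probe sets Cd79a and Ms4a1 had higher group means at 14 than at 23 days in mdx and in control diaphragm, as Ighd had. Cd79b went the other way in mdx, averaging 394 at 14 days and 549 at 23 days, as did Ms4a1 by its other probe set, 99446_at (521 and 573), while both were lower at 23 days in control diaphragm. Cd79a averaged 1215 in mdx and 1130.1 in control diaphragm at 14 days. As a mean over the 6 ages 3 B lineage genes were higher in mdx, namely Cd72 (1.31), Cd83 (1.03), an activation marker also found on dendritic cells, and Btk (0.64), a kinase of B cell receptor signalling that myeloid cells share. By its other probe set, 99434_at, Cd83 averaged 125 in mdx and 183 in control diaphragm at 23 days. It was lower in mdx at 28 days as well (245.5 against 368.6) and higher at the other ages. Cd72 averaged 58.4 in mdx and 55.1 in control diaphragm at 7 days, and 117 in mdx and 130 in control diaphragm at 14 days. From 23 days on its mean was higher in mdx at each age. At 112 days it was 661 ± 75.3 in mdx and 51.7 ± 7.69 in control diaphragm (SD, n = 3 each), an age at which 2 antibody members differed. Cd79a, Cd79b and Ms4a1 instead had lower means in mdx at 28 and 56 days, and higher ones at 112 days.

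Of 11 plasma cell genes measured, 0 passed at 23 days in either direction by limma, with a median log2 difference of 0.21 against -0.01 over all probe sets, and 3 were higher as a mean over the 6 ages: Fkbp11 (0.44), Sec11c (0.30) and Creld2 (0.23), which act in the secretory pathway. Tnfrsf17, a receptor of plasma cells, read 307, 298 and 199 in mdx at 23 days, against 216, 208 and 291 in control diaphragm, and the plasma cell surface marker Sdc1 (161370_f_at) 242, 322 and 248 in mdx, against 259, 205 and 318 in control diaphragm. Both overlapped between genotypes. Prdm1, a regulator of plasma cells, did not reach the signal needed for a test, its highest value being 347.6. Xbp1, a factor of secretory cells that muscle also expresses, read 3281, 3526 and 3754 in mdx at 23 days, against 2957, 3110.4 and 2695 in control diaphragm, with every mdx array above every control array. At 23 days, the summed signal of the plasma cell list was 13742 to 15460.2 on the mdx arrays and 12012 to 12494 on the control arrays, without overlap. It was likewise apart at 28 days, at 13687 to 15581 on the mdx arrays and 11937 to 13066 on the control arrays. At that age the antibody members had a median log2 difference of -0.31. The genotypes overlapped at the other ages.

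Genes that act on antibodies or on B cells were given from the same lists. Of 16 genes of protein folding and secretion in the endoplasmic reticulum, 1 was higher and 0 lower in mdx at 23 days; of 7 genes of antibody gene recombination, 0 and 0; of 7 antibody receptors and transporters, 2 and 0; and of 8 B cell survival and recruitment signals, 1 and 0. The secretory gene was Erp29 (0.64, adjusted p = 0.0278), a chaperone. The receptors were Fcgr1 (1.67, adjusted p = 0.000493) and Fcgr2b (1.55, adjusted p = 0.00374), which bind IgG and are also expressed by macrophages, and the signal gene was Cxcr4 (1.35, adjusted p = 0.0158), a chemokine receptor of many leukocytes. Its ligand Cxcl12 was lower in mdx as a mean over the 6 ages (-0.57, adjusted p = 6.94e-08).

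Markers of other cells at 23 days were as follows. Of 18 macrophage genes 15 were higher in mdx and 0 lower, and their summed signal was 63854 to 116834 on the mdx arrays and 22205 to 25386 on the control arrays. Macrophage genes stayed higher at the later ages, with 13 of 18 at 28 days and 14 of 18 at both 56 and 112 days, at which few antibody members passed the test. Of 8 T cell genes 0 passed, and the T cell receptor subunit Cd3e stayed below the signal needed for a test on all but 1 array, mdx replicate 3 at 112 days (408). Of 10 neutrophil genes 1 was higher, S100a8 (2.33, adjusted p = 0.0218), a calcium-binding protein of neutrophils and monocytes. Of 3 NK cell, 5 mast cell, 8 erythroid, 5 lymphoid stroma, 6 mesothelial, 15 liver and 20 skeletal muscle genes 0 passed in either direction. The liver list summed to 5564 to 11855 on the mdx arrays and 4420.5 to 6018 on the control arrays at 23 days, and Alb was between 120 and 738 on the mdx arrays and between 280.1 and 329 on the control arrays. At 56 days the liver list was 10342 to 12870 on the mdx arrays and 12955 to 49278.5 on the control arrays. The part of macrophages, lymphoid tissue or other tissue in the antibody signals was not tested.

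The genes whose log2 signal went most closely with the mean of the 57 members across the 36 arrays, after each group mean was subtracted, were Agap2 (Pearson r = 0.72), Btg2 (0.65), Zscan26, Egr2, Mtrf1l and Adck1 (0.64 each), Smarcad1 (0.63), and Slc25a3, Pqlc3 and Uhmk1 (0.62 each). These values describe 36 arrays that share their scaling. None of the 10 is a B lineage or plasma cell gene of the lists used here.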

How the data were processed

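The deposited values were intensities, 1 linear signal per probe set and array, which the authors had scaled to a common level; the trimmed mean between percentiles 2 and 98 was 1499.2 to 1499.7 on every array. No label or header names the software that made them. Probe set names came from the platform annotation, and genes, positions and promoters from RefSeq tables on GRCm38.p6. Signals plus 32 were taken to log2 and fitted with limma 3.58.1 in R 4.3.3 as 12 group means over 36 arrays (24 residual degrees of freedom), with an intensity trend and Benjamini-Hochberg adjustment over 9291 probe sets that exceeded 374.5 on at least 3 arrays. An adjusted p under 0.05 passed. Fold changes on this scale understate those of dim probe sets. The number of arrays limits precision. The script was tested on simulated data. Named were Jchain, constant regions, Igll1, up to 10 members that passed per comparison and direction, up to 3 genes per list, fixed defining markers and the 10 most like genes; other names fill counts of 5 or fewer or set a probe set beside another of its gene. The members and lists were chosen with earlier results of these data known. Array weights, quantile normalization, other pseudocounts and filters, a replicate block, single ages and arrays left out were tried.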

Additional observations from a re-analysis of the deposited data

Results flagged for a closer look

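The difference between mdx and control diaphragm depended on age, by limma's F test, for 8 of 57 members, where 8.93% of all probe sets passed. The adjusted p was 0.010 for Igkv6-14 (101331_f_at), 0.0202 for the kappa probe set 101616_at, 0.0053 for Igkv6-23 (102156_f_at), 0.0399 for Jchain (102372_at), 0.0285 for the kappa probe set 102585_f_at, 0.0407 for Igkv2-112 (96969_at), 0.0208 for the kappa probe set 97567_f_at and 0.0451 for Igkv1-133 (99405_at). Of these, only 101616_at and 102585_f_at kept the call without the arrays with high Alb. Igkv2-112 (96969_at) entered the tests through the mdx arrays at 56 days, where it is high. For 3 heavy chain members the difference at 112 days departed from that at 7 days, by a log2 value of -1.96 for Igh-VS107 (102152_f_at), 2.50 for Ighg3 (102722_g_at) and -1.10 for Ighv5-12 (98765_f_at). Of all probe sets 6.25% passed this test higher and 3.59% lower. These 3 calls were lost without the arrays with high Alb. Single outlying arrays were not tested within groups of 3 arrays.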

How the results depend on the processing

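Single members were recomputed under other settings: of 1187 such values for 58 results, 946 kept their direction and side of the threshold, 236 kept the direction but no longer passed, 1 newly passed and 4 changed sign. Values of the F test, which has no direction, were sorted by side of the threshold alone.
Counts of members that passed moved as follows. At 23 days they were 19 with array weights, 6 with quantile normalization and 3 with the 6 arrays of that age alone; at 28 days 3 with array weights and 0 without a filter or without the arrays with high Alb; at 56 days 2 without those arrays; at 112 days 1 with the stricter filter, with array weights or with no filter and 0 with 6 arrays alone. For the mean of the 6 ages they were 1 with the stricter filter, with quantile normalization and without the high-Alb arrays. For the interaction they were 0, for the F test 4 and for control ageing 22 without the high-Alb arrays, and for the F test 15 with array weights.
Leaving out 1 array at a time gave 0 to 0 at 7 and 14 days, 2 to 12 at 23, 0 to 3 at 28, 1 to 6 at 56 and 1 to 3 at 112 days, 2 to 6 for the mean, 1 to 4 for the interaction, 2 to 13 for the F test, 23 to 35 for mdx ageing and 28 to 37 for control ageing.
Same-numbered arrays shared only a number: of 18 pairs 1 had a correlation over 0.1 (-0.23 to 0.15). With replicate number as a block the counts were 6 at 23, 0 at 28 and 2 at 56 days, 2 for the mean, 1 for the interaction and 3 for the F test. No paired analysis was possible for ageing within a genotype because the number is nested in age.
The Jchain difference was -0.064 to 0.31 at 112 days with 1 array left out, and changed sign without mdx replicate 1 (-0.064). At 14 days it was -0.60 to 0.20, changing sign without control replicate 3 (0.20) or mdx replicate 3 (0.19), and was 0.58 without the high-Alb arrays. The cause was not tested.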
